A study of Homo sapiens with 2 samples.

Results

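The 10 genes described here are abundant-transcript protein-coding genes and copies of such genes at which a peak was called: ACTB, GAPDH and EEF2, the pseudogenes EEF1A1P5, EEF1A1P6, EEF1A1P13, PPIAP22, RPL3P4 and RPS2P5, and RPSA2. DNA had been immunoprecipitated with an antibody against AIM2 from HaCaT cells, an immortalised human keratinocyte line, that were given 20 Gy of X-rays (the 20 Gy library, whose title also gives 4 h without naming the event it counts from) or left unirradiated (the 0 Gy library). Chromatin had been fixed with formaldehyde and sonicated. The series asked at which places in the genome this antibody recovers DNA, and how irradiation alters them. The genes were chosen by the called peaks themselves: each has a summit, the position of highest coverage, within 1000 bp of its extent on GRCh38 in at least 1 library. It found 10 peaks at 9 of the 10 genes among the 1525 peaks of the 20 Gy library, and 4 peaks at 4 genes among the 1936 peaks of the 0 Gy library, so 14 of 3461 peaks in all. Each group had 1 library, so a difference between groups could not be tested. Without a control library, coverage that does not depend on the antibody can also be called as a peak.

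AIM2 is a cytosolic sensor that binds double-stranded DNA through its HIN domain with little regard to sequence and assembles an inflammasome. The genes set out here are known for their transcripts. Beta-actin (ACTB), glyceraldehyde-3-phosphate dehydrogenase (GAPDH), the translation elongation factors eEF2 and eEF1A1, cyclophilin A (PPIA) and the ribosomal proteins are made in nearly every cell from very abundant mRNAs. Such mRNAs have often been copied back into the genome by the reverse transcriptase of LINE-1 elements. The resulting processed copies resemble the spliced mRNA, usually lack introns and promoters, and sit far from the source gene. Their sequences are close to each other and to the exons of the source gene, so short reads can be placed on the wrong copy, and each assignment to a copy below is uncertain to that extent.

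After filtering, 6423989 fragments were kept in the 20 Gy library and 8786091 in the 0 Gy library, a ratio of 0.731. The height of a peak is its pileup, the number of fragments that cover the summit, as deposited. Pileups are also given in fragments per 1000000 kept fragments (FPM), each with an exact Poisson interval at 95% that covers counting error only. The shortest peak that could be called was 170 bp at 20 Gy and 7 bp more at 0 Gy, and 2 of the 10 peaks at 20 Gy were shorter than the 0 Gy minimum.

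In the 20 Gy library 9 of the 10 genes had a peak, and in the 0 Gy library 4 did. EEF1A1P5, EEF1A1P6 and RPSA2 had peaks in both. ACTB, GAPDH, EEF1A1P13, PPIAP22, RPL3P4 and RPS2P5 had 1 at 20 Gy and none called at 0 Gy, and EEF2 had the reverse. Over the whole annotation, 0.24% of 20033 protein-coding genes had a summit within 1000 bp in the 20 Gy library, and 0.22% in the 0 Gy library. Among 16845 pseudogenes these shares were 0.22% at 20 Gy and 0.226% at 0 Gy. The 10 genes were picked for having peaks, so nothing is read from their own counts against these shares. Pileups ran from 5 to 23 at 20 Gy with a median of 9, and from 8 to 28 at 0 Gy with a median of 10.

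**Figure D1:**
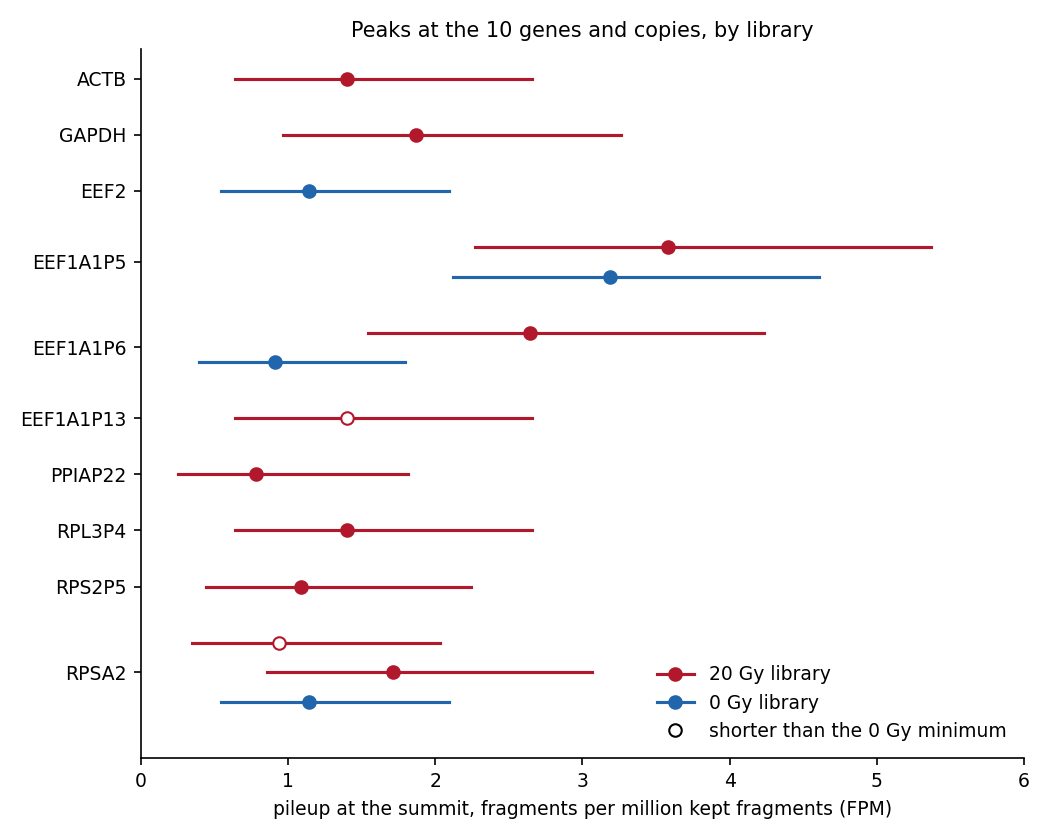
Pileup at the summit in fragments per 1000000 kept fragments, FPM (horizontal axis) of each peak at the 10 genes, with red for the 20 Gy library above blue for the 0 Gy library. Points are single peaks, lines are exact 95% Poisson intervals for counting error, and open points are peaks shorter than the 0 Gy minimum length. EEF1A1P5 was highest in each library, at 3.58 in the 20 Gy library and 3.19 in the 0 Gy library.

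ACTB encodes beta-actin, the cytoskeletal protein, and lies on chromosome 7 from 5527148 to 5530601. Its peak in the 20 Gy library spanned 5527598 to 5527775, which is 178 bp. The pileup was 9, or 1.40 FPM (0.641 to 2.66). It stood 4.61-fold over the local background, with a −log10 q-value of 2.43. The summit lay inside the gene, 563 bp from its lower-coordinate end and 2890 bp from the upper one. The nearest peak of the 0 Gy library was 17.0 Mb away.

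GAPDH encodes the glycolytic enzyme and lies on chromosome 12 from 6534517 to 6538371, on the plus strand. Its peak in the 20 Gy library spanned 6537701 to 6537968, which is 268 bp, with a pileup of 12, or 1.87 FPM (0.965 to 3.26). The fold enrichment was 7.40 and the −log10 q-value 7.37. The summit was 2578 bp downstream of the start site in the RefSeq promoter table and 529 bp from the 3′ end of the gene. The nearest peak of the 0 Gy library was 20.8 Mb away. Of the peaks at ACTB, GAPDH and EEF2 this was the highest in FPM, and it lay near the 3′ end of the gene and not at its start.

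EEF2 encodes the elongation factor that moves the ribosome along the mRNA, and lies on chromosome 19 from 3976056 to 3985463, on the minus strand. Its peak was in the 0 Gy library, from 3977858 to 3978104, which is 247 bp, with a pileup of 10, or 1.14 FPM (0.546 to 2.09). The fold enrichment was 4.68 and the −log10 q-value 2.85. The summit was 7485 bp downstream of the start site and 1922 bp from the 3′ end. The nearest peak of the 20 Gy library was 3.56 Mb away.

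EEF1A1 encodes the factor that brings aminoacyl-tRNA to the ribosome, and 3 of its copies had peaks, the strongest of all 10 genes among them. EEF1A1P5, on chromosome 9 from 133019423 to 133021169, had a pileup of 23 in the 20 Gy library, or 3.58 FPM (2.27 to 5.37). In the 0 Gy library its pileup was 28, or 3.19 FPM (2.12 to 4.61). The peak was 1140 bp long at 20 Gy (133019591 to 133020730) and 941 bp long at 0 Gy (133019776 to 133020716). These peaks covered 65.3% of the 1747 bp copy at 20 Gy and 53.9% at 0 Gy, and the whole 0 Gy peak lay within the 20 Gy one. By length they ranked 5 of 1518 nuclear peaks at 20 Gy and 12 of 1929 at 0 Gy. Per kept fragment the 20 Gy pileup was 1.12 times the 0 Gy one, with an exact interval of 0.618 to 2.02. The median of 1046 nuclear pairs of overlapping peaks was 1.06. The summits were 253 bp apart, so these are heights at different positions of the copy, which was itself picked for having peaks. A difference in level between the libraries was not tested. The peaks also overlapped SNORD141A, a small nucleolar RNA gene annotated inside the copy.

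EEF1A1P6 had a peak in each library, but at different places in the copy. It lies on chromosome 7 from 22510317 to 22512062. In the 20 Gy library the peak spanned 22511004 to 22511408, with a pileup of 17, or 2.65 FPM (1.54 to 4.24). The fold enrichment was 10.4 and the −log10 q-value 14.1. In the 0 Gy library it spanned 22510603 to 22510904, with a pileup of 8, or 0.911 FPM (0.393 to 1.79). There the fold enrichment was 5.64 and the −log10 q-value 3.87. A gap of 99 bp separated these peaks and their summits were 357 bp apart, so by overlap they were not shared. The pileup per kept fragment was 2.91 times as high at the 20 Gy summit as at the 0 Gy summit (1.19 to 7.78). These are heights at different positions of the copy, which was itself picked for having peaks.

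EEF1A1P13, on chromosome 5 from 14651643 to 14653389, had a peak in the 20 Gy library from 14652762 to 14652934. Its pileup was 9, or 1.40 FPM (0.641 to 2.66), with a −log10 q-value of 4.89. At 173 bp it was shorter than a 0 Gy peak could be. It did not reach SNORD141B, the small nucleolar RNA gene inside this copy. The nearest peak of the 0 Gy library was 2.70 Mb away. The 3 EEF1A1 copies are of nearly equal length, 1747, 1746 and 1747 bp, and their summits at 20 Gy lay 352, 881 and 1204 bp from the lower-coordinate end, so the peaks did not share 1 position along the copies. The strand of the copies was not used here, so these distances may run in opposite directions of the mRNA.

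**Figure D2:**
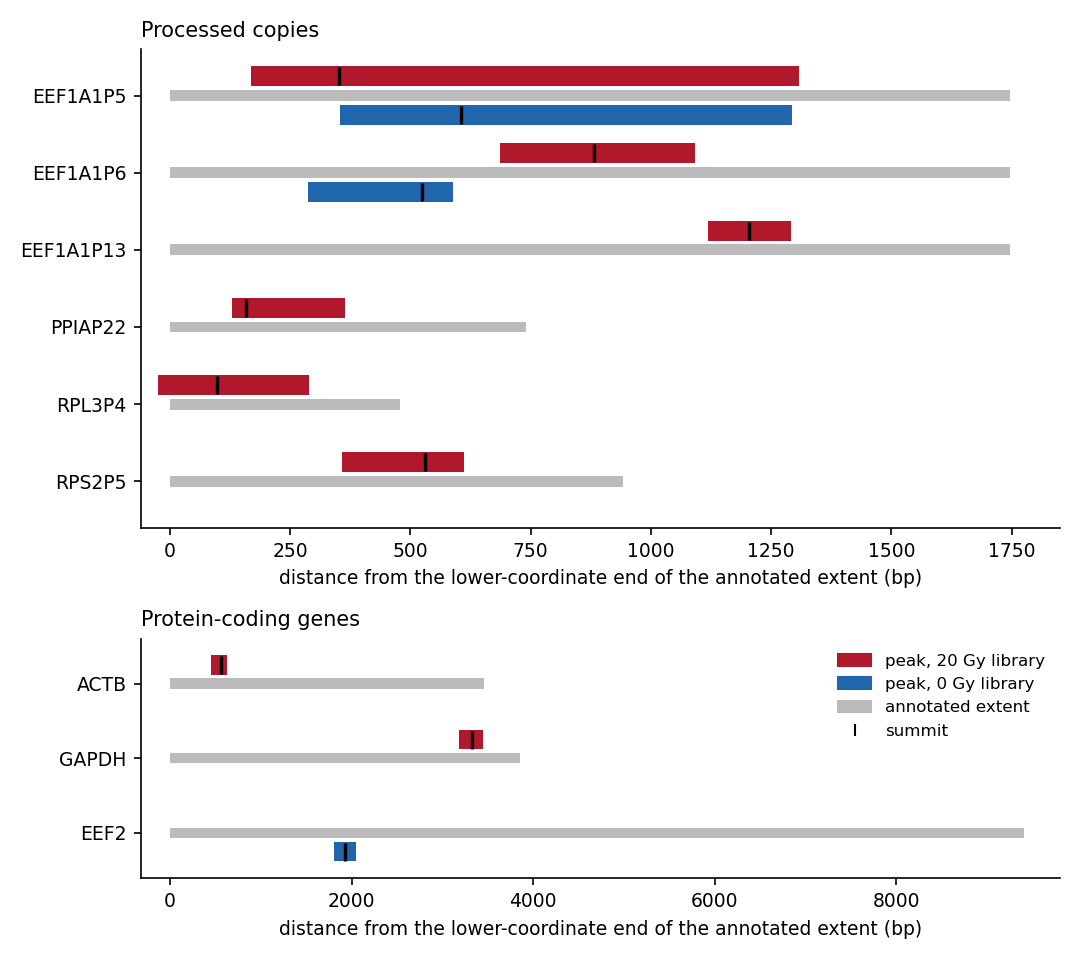
Peaks of the 20 Gy library (red, above) and the 0 Gy library (blue, below) along the annotated extent of each processed copy and of ACTB, GAPDH and EEF2 (grey), in bp from the lower-coordinate end, with summits as black ticks. Every summit shown lies inside its gene, and the peaks of EEF1A1P5 cover 65.3% of the copy at 20 Gy and 53.9% at 0 Gy.

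The other 3 pseudogenes had low peaks at 20 Gy, and at 0 Gy no peak was called at any of them. PPIAP22 is a copy of PPIA, which encodes cyclophilin A, a peptidyl-prolyl isomerase, and lies on chromosome 21 from 18857737 to 18858476. Its peak from 18857865 to 18858100 had a pileup of 5, or 0.778 FPM (0.253 to 1.82), which is the lowest pileup of any 20 Gy peak. Its −log10 q-value of 1.51 was the closest of the 14 to the caller's limit of 1.30. RPL3P4 is a copy of RPL3, which encodes a protein of the large ribosomal subunit. This 479 bp copy lies on chromosome 14 from 98972823 to 98973301, and its peak from 98972798 to 98973111 had a pileup of 9, or 1.40 FPM (0.641 to 2.66). The peak covered 60.3% of the copy and ran 25 bp past its end, the only one of the 14 peaks not wholly inside its gene.

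RPS2P5 is a copy of RPS2, which encodes a protein of the small ribosomal subunit. It lies on chromosome 12 from 118246061 to 118247002, inside the extent of TAOK3, a kinase gene. Its peak from 118246418 to 118246671 had a pileup of 7, or 1.09 FPM (0.438 to 2.25), with a −log10 q-value of 2.58. The nearest peaks of the 0 Gy library were 5.98 Mb from PPIAP22, 48.3 Mb from RPL3P4 and 2.0 Mb from RPS2P5.

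RPSA2, on chromosome 19 from 23758496 to 23871188, is annotated as protein coding and carries the earlier name RPSAP58 of an RPSA pseudogene. RPSA encodes a ribosomal protein that also serves as a laminin receptor. Its extent of 112693 bp is far longer than that of the other 9 genes, so a summit can fall inside it more easily. In the 20 Gy library a peak from 23827332 to 23827593 had a pileup of 11, or 1.71 FPM (0.855 to 3.06), with a −log10 q-value of 5.73. In the 0 Gy library the peak at this place, from 23827357 to 23827674, had a pileup of 10, or 1.14 FPM (0.546 to 2.09), with a −log10 q-value of 4.72. These peaks overlapped by 237 bp, and their summits were 123 bp apart. The 20 Gy pileup per kept fragment was 1.5 times the 0 Gy one (0.580 to 3.95). These are heights at different positions of a gene picked for having peaks, and a difference between the libraries was not tested. A second 20 Gy peak, from 23767611 to 23767782, had a pileup of 6, or 0.934 FPM (0.343 to 2.03). It was 172 bp long, so it too was below the 0 Gy minimum. The summits at 20 Gy were 4717 and 64406 bp downstream of the start site in the RefSeq promoter table.

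All 14 summits lay inside the annotated extent of their gene, although the rule admitted 1000 bp on either side. No gene of the lists below, and no copy, had its nearest summit between 1000 and 5000 bp away. For GAPDH, EEF2 and RPSA2, the genes with a start site in the promoter table, no peak lay within 1000 bp of that start. ACTB had no entry. Exon limits were not used here, so whether the peaks at ACTB, GAPDH, EEF2 and RPSA2 lie in exons was not analysed.

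For a gene with a peak in 1 library, the height that a call would have taken in the other was worked out. At the 0 Gy depth, the ACTB level of the 20 Gy library would be a pileup of 12.3 (5.63 to 23.4). A pileup of 9 would have been needed there if the local background had grown with depth. For EEF1A1P13 and RPL3P4 these values were 12.3 (5.63 to 23.4) against 7, for RPS2P5 9.57 (3.85 to 19.7) against 7, and for PPIAP22 6.84 (2.22 to 16.0) against 6. At the 20 Gy depth, the EEF2 level of the 0 Gy library would be 7.31 (3.51 to 13.4) against 8. In each of these 6 cases the interval included the pileup needed. For GAPDH the level would be 16.4 (8.48 to 28.7) against 8, with the whole interval above it. Each interval covers counting error in the library with the peak only. A count in the other library has its own error and could fall below the pileup needed, also at GAPDH. The minimum length was not considered in these values, and the EEF1A1P13 peak was below that of the 0 Gy library. These genes were picked for a peak in at least 1 library, by the same pileups that are scaled here, and no test was made.

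The source genes of the copies, and RPSA, had no peak in either library. EEF1A1, PPIA, RPL3, RPS2 and RPSA are 5283, 6437, 6742, 2769 and 5823 bp long. The nearest peak was 13.3 Mb from EEF1A1 and 11.6 Mb from PPIA in each library. It was 7.29 Mb from RPL3 at 20 Gy and 18.0 Mb at 0 Gy, and 36.3 Mb from RPSA at 20 Gy and 8.80 Mb at 0 Gy. RPS2 was 1.01 Mb from a peak in each library. These 5 genes were looked at because genes named after them had peaks. Beside the 0.24% of all protein-coding genes with a peak at 20 Gy and the 0.22% at 0 Gy, none among 5 genes is no result about them.

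Few genes of the wider lists had a peak. Of 25 abundant-transcript protein-coding genes, ACTB and GAPDH carried a peak at 20 Gy (8%), and EEF2 did at 0 Gy (4%), beside 0.24% and 0.22% of all protein-coding genes in these libraries. None of the 83 cytosolic ribosomal protein genes had a peak in either library, and neither did any of 15 genes for abundant keratinocyte transcripts, among them KRT5 and KRT14, which encode the keratins of basal keratinocytes. At the share of all protein-coding genes, fewer than 1 of these 83 genes would have had a peak. ACTB, GAPDH and EEF2 are among the genes picked for having peaks, so the share of their list is no support for a pattern.

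Of 2520 pseudogenes named as copies in 21 such families, 9 (0.357%) carried a peak in the 20 Gy library and 3 (0.119%) in the 0 Gy library, where all pseudogenes gave 0.22% at 20 Gy and 0.226% at 0 Gy. Of these, 6 at 20 Gy and 2 at 0 Gy are among the genes picked for having peaks. With 20 Gy peaks shorter than the 0 Gy minimum left out, 8 copies were left at 20 Gy (0.317%). Among the 14325 pseudogenes outside these families 28 (0.195%) carried one in the 20 Gy library and 35 (0.244%) in the 0 Gy library. EEF1A1 had the most copies with a peak, 3 of 50 at 20 Gy (6%) and 2 of 50 at 0 Gy (4%). EEF1A1 copies are longer than most, at a median of 1642 bp against 725 bp over all pseudogenes. At 20 Gy 1 of 87 PPIA copies (1.15%), 1 of 13 RPL3 copies (7.69%) and 1 of 55 RPS2 copies (1.82%) had a peak, and at 0 Gy none did. All of these copies are among the genes picked for having peaks. None of 74 pseudogenes named as RPSA copies, 65 GAPDH copies or 14 ACTB copies had a peak in either library. Neither did any of 75 copies of HNRNPA1, an RNA-binding protein gene. RPSA2, which had peaks, is annotated as protein coding and so is not among these 74.

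The copies of these families with a peak that are not among the 10 genes were RPL14P1, RPL13P12 and RPS26P25 at 20 Gy and FTH1P10 at 0 Gy. RPL14P1 and RPL13P12 are copies of genes for proteins of the large ribosomal subunit and had pileups of 10 and 11, or 1.56 and 1.71 FPM. RPS26P25, a copy of a gene for a small-subunit protein, had a pileup of 7, or 1.09 FPM. FTH1P10 is a copy of the ferritin heavy chain gene and had a pileup of 9, or 1.02 FPM. None of these 4 peaks was shared between the libraries, and each summit lay inside its copy.

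Beside all other nuclear peaks, most peaks at the 10 genes were lower but not shorter. Only 4.64% of those others at 20 Gy and 3.58% at 0 Gy lay more than 1 Mb from another peak. Height was not compared with isolated peaks alone, so low height is not shown to be particular to these genes. At 20 Gy 8 of the 10 peaks were below the nuclear median pileup of 13, and at 0 Gy 3 of the 4 were below the median of 15. The median fold enrichment was 6.08 at the 10 genes and 6.76 over the other nuclear peaks at 20 Gy, and 5.80 and 6.74 at 0 Gy. At the 10 genes 7 of 10 peaks at 20 Gy, and all 4 at 0 Gy, were longer than the nuclear medians of 228 bp at 20 Gy and 238 bp at 0 Gy. The local background, recovered from each peak's pileup and fold enrichment, was 1.97 at EEF1A1P5 at 20 Gy and 2.59 at 0 Gy, 4.69 and 4.36 times the lowest of each library. It was 1.17 at ACTB, 2.79 times the lowest, and at PPIAP22 it was at the lowest value of the 20 Gy library, 0.419. That background is taken over 10000 bp of the same library, so a long peak adds to it.

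**Figure D3:**
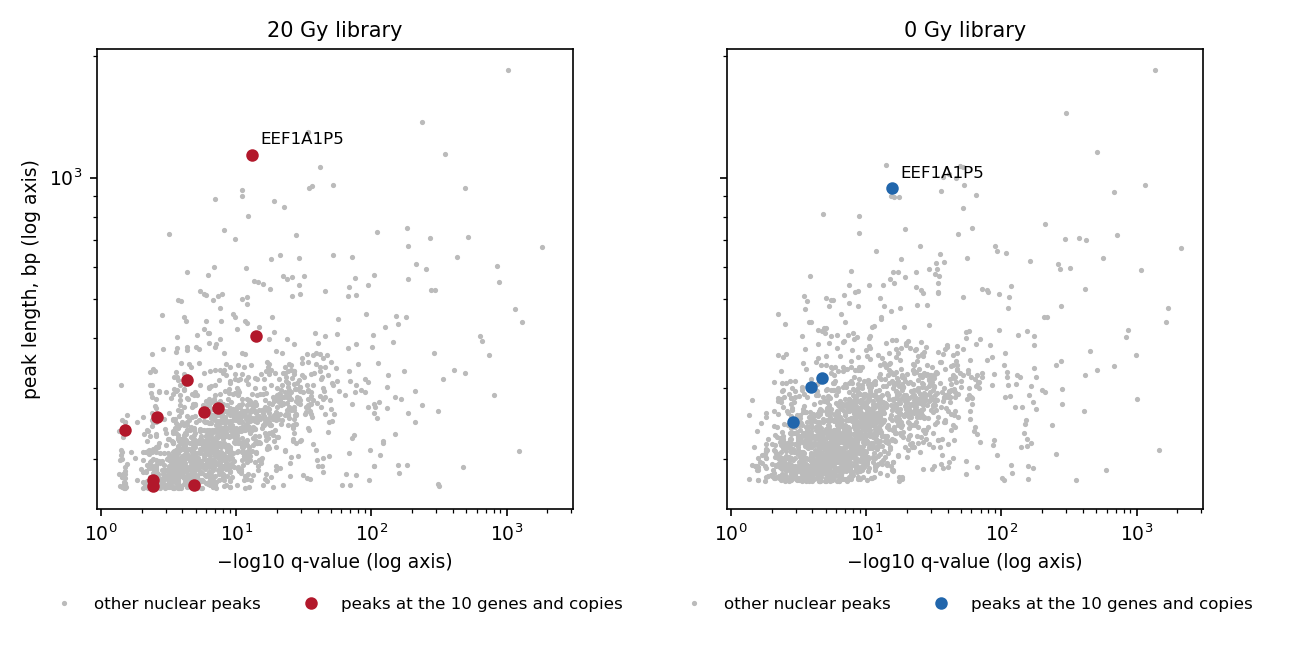
Peak length in bp against −log10 q-value, both on log axes, for the nuclear peaks of the 20 Gy library (left) and the 0 Gy library (right), with the peaks at the 10 genes in colour and all others in grey. EEF1A1P5 stands among the longest peaks, and its −log10 q-values, 13.05 at 20 Gy and 15.57 at 0 Gy, exceed those of 71.6% of nuclear peaks at 20 Gy and 73.2% at 0 Gy.

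Peaks that overlapped between the libraries were counted at the 10 genes and elsewhere. At 20 Gy 2 of 10 overlapped a 0 Gy peak, beside 69.5% of the other nuclear peaks, and at 0 Gy 2 of 4 overlapped a 20 Gy peak, beside 54.3%. Peaks with a −log10 q-value under 5 made up 6 of the 10 at 20 Gy, and none of these 6 was shared, where 38.5% of 509 other such peaks were. At 0 Gy 1 of 3 was shared, where 21.9% of 549 others were. At 5 or above, 2 of the 4 at 20 Gy were shared, where 85.3% of 999 others were, and so was the single 0 Gy peak, where 67.2% of 1376 others were. The 10 genes include some picked for a peak in 1 library, so these shares are a description of the choice and not a test. At 20 Gy 8 of the 10 peaks lay more than 1 Mb from another peak, beside 4.64% of the other nuclear peaks. Sharing was not compared with isolated peaks alone, so low sharing is not shown to be particular to these genes.

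Most peaks at the 10 genes also lay far from any other, a description of genes picked by their peaks and not a test. At 20 Gy the distance to the nearest peak of the same library had a median of 5.40 Mb and exceeded 1 Mb for 8 of 10 peaks, the exceptions being the RPSA2 pair, 0.0597 Mb apart. At 0 Gy it exceeded 1 Mb for 3 of 4, the exception being the RPSA2 peak at 0.728 Mb. Among the other nuclear peaks 4.64% at 20 Gy and 3.58% at 0 Gy were that far from another. Other peaks within 1000 bp of an annotated gene are the closer comparison, and of these 37 of 103 at 20 Gy (35.9%) and 47 of 112 at 0 Gy (42.0%) were more than 1 Mb from the next.

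**Figure D4:**
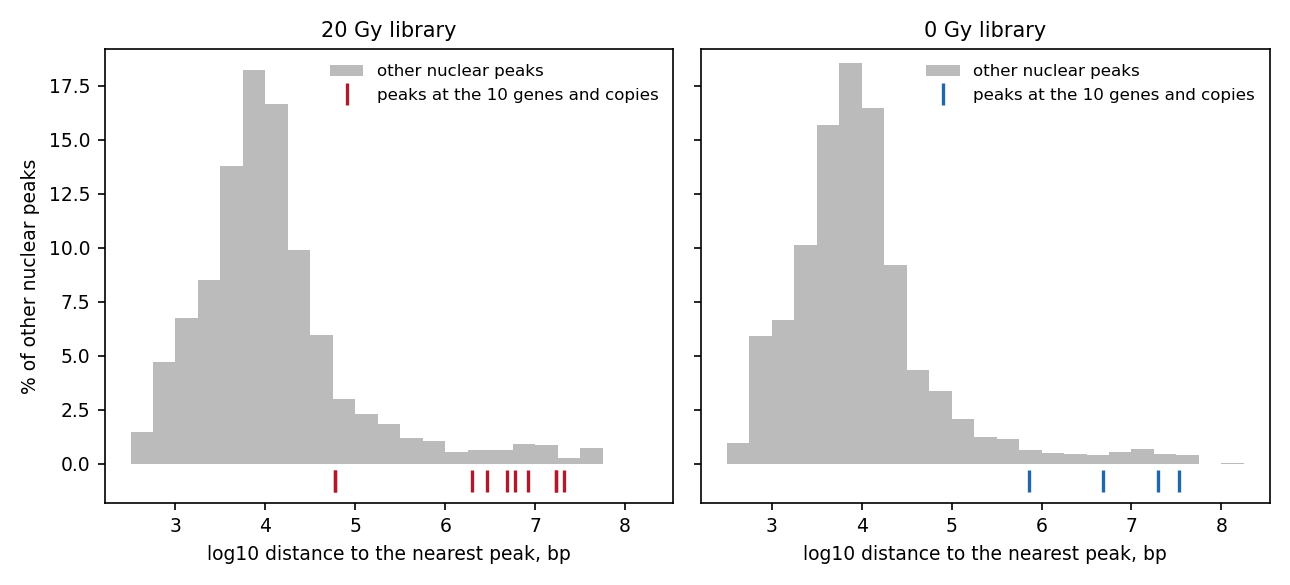
Distribution of the log10 distance in bp to the nearest peak of the same library for other nuclear peaks (grey bars, % of peaks) in the 20 Gy library (left) and the 0 Gy library (right), with ticks for the peaks at the 10 genes. Of the ticks, 8 of 10 at 20 Gy and 3 of 4 at 0 Gy lie beyond 1 Mb, which is 6 on this axis.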

How the data were processed

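Per the submitters' processing notes, GRCh38.p13 was the build, and the tools included BWA 0.7.15-r1140 and Trimmomatic 0.36. MACS2 2.1.2 called the peaks of each library alone, per the file headers, in paired-end mode, without a control, at a q-value limit of 0.05 and with at most 1 fragment kept per position. The input name holds "uniq" and "rmdup", and how reads matching several places were treated is not given in the sources used here. The deposited signal is the pileup at the summit, not scaled between the libraries per the file headers. The deposited −log10 p-values and q-values, and the deposited fold enrichment, compare a peak with its own library's local background.

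That background was recovered as (pileup + 1) / fold − 1, and it gave back the deposited −log10 p-value within 0.01 for all 1501 peaks at 20 Gy and 1909 at 0 Gy for which the calculation stayed finite. Depth was 7740043 fragments at 20 Gy and 10497630 at 0 Gy before filtering.

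Gene extents came from a RefSeq table of GRCh38 (59675 nuclear genes with positions), whose chromosomes have the coordinates of the files' build. Peaks were shared at an overlap of at least 1 bp. Copies were taken by symbol among pseudogenes. Named were the 10 genes, the source genes of the copies, and every gene of the lists with a peak. The 10 genes and the lists were chosen with earlier results of these data known. Gene assignment was tested on simulated data with 59675 genes: all 150 summits planted inside the window were found, and 0 of 50 planted outside. Computation used Python 3.11.15, pandas 2.3.3 and SciPy 1.17.1. A genome sequence and exon limits were not used here, so no sequence is shown.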

Additional observations from a re-analysis of the deposited data

How the results depend on the processing

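Of 52 counts recomputed under alternatives, 45 stayed within 1.5 times the main count. Some of these could not move. A list with no gene stays at 0 under a stricter setting, and no 0 Gy peak was shorter than the 0 Gy minimum. The other 7 moved, all under stricter −log10 q-value limits, which leave fewer peaks by construction. At a limit of 3, peaks at the 10 genes numbered 6 at 20 Gy. The abundant-transcript list then had 1 gene at 20 Gy (GAPDH) and 0 at 0 Gy. Some counts lay exactly at 1.5 times and so did not count as moved. Genes with a peak at 20 Gy fell from 9 to 6 at this limit. Shared peaks rose from 2 to 3 in each library when a peak of the other library within 1000 bp was enough. At a limit of 5, 4 peaks at 4 genes were left at 20 Gy and 1 peak at 1 gene at 0 Gy. A window of 0 or 5000 bp and overlap in place of the summit gave the main counts. Requiring the 0 Gy minimum length in both libraries, an alternative chosen for the gene lists after seeing the data, left 8 peaks at 20 Gy and all 4 at 0 Gy. All 28 rescaled pileups stayed within their Poisson intervals, an outcome fixed in advance. Each rescaling multiplied all pileups of a library by the same factor, a smaller change than any of these intervals allows. Scaling by the median of shared nuclear peaks left the 0 Gy values unchanged by construction. Pileups of 5 to 28 limit every value here. No paired analysis was possible because there is 1 library a group.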
